A study of Mus musculus with 9 samples.

Results

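The genes described here are 30 genes of cholesterol synthesis, sterol sensing and sterol transport in rat liver. They were chosen by gene symbol from a count table of 19686 genes, and all 30 were found there with 1 entry each. In each comparison 29 of them passed the filter on low counts, and Npc1l1 did not. Of these, 18 encode enzymes on the route from acetyl-CoA units to cholesterol, and the remaining 12 act in sterol sensing, in transport, in the storage of cholesterol esters or on a side branch. Hepatic RNA of 9 male Wistar rats was sequenced, with 3 rats in each of the control, model and HME groups. The control group drank purified water and received saline by gavage. The model group drank 15% fructose and received saline. The HME group drank 15% fructose and received the 50% methanol extract of Danggui-Shaoyao-San (DSS), a formula of traditional Chinese herbs, at 1.8 g/kg. All groups were treated for 8 weeks and fasted for 12 h before sacrifice, so every level below is that of a fasted liver. The sample labels call the extract group DSS and name the mouse as organism, whereas strain and gene identifiers belong to the rat. The labels give no ages and do not say whether a library was made from a single animal, so each numbered library was read as 1 rat. All p-values therefore measure the spread between these libraries.

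Cholesterol is built in the liver from acetyl-CoA. The mevalonate arm makes 5-carbon isoprene units and joins them to farnesyl diphosphate, squalene synthase and its partners turn this into lanosterol, and a series of further enzymes trims lanosterol to cholesterol. SREBP2, the protein of Srebf2, switches on nearly all of these genes. When membranes of the endoplasmic reticulum are rich in sterol, the Insig proteins hold the escort protein Scap and SREBP2 back there. When sterol is scarce, Scap carries SREBP2 to the Golgi, where it is cut and freed to enter the nucleus. Insig1 is itself a target of SREBP2, and Insig2 has a liver transcript that is known to be repressed by insulin and raised by fasting.

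Promoter sequence of the rat was not used here, and the sequences shown are those of the mouse orthologues from RefSeq (build GRCm38.p6). They are shown for the kinds of site that promoters of these genes hold. Mouse promoters were matched by symbol for 24 of the 30 genes and covered 250 bases before to 50 bases after the start. Both strands were searched for the sterol regulatory element TCACNCCAC, the CCAAT box (CCAAT) and the GC box (GGGCGG), which do not overlap as letters. A CCAAT box was present for 14 of the 15 matched synthesis enzymes, all but Acat2, against 37.4% of all promoters and 42.6% of the 8740 matched genes tested in this liver. A GC box was present for 14 of 15, all but Pmvk, against 35.7% of all promoters and 69.1% of the matched liver genes. The exact sterol element was found for Hmgcs1 only, against 1.24% of all promoters. A missing match says only that these letters are not in the window. The stretches below run 5′ to 3′ on the strand of the gene, for Hmgcs1 at chr13:119690214-119690293 on the plus strand, for Hsd17b7 at chr1:169969308-169969387 on the minus strand and for Insig1 at chr5:28071183-28071262 on the plus strand. Capitals mark matches to any of the 3 motifs on either strand. The 3 genes were chosen because they behaved differently in the rats, as described below.
Hmgcs1: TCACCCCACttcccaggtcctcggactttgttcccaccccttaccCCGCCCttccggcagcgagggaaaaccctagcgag
Hsd17b7: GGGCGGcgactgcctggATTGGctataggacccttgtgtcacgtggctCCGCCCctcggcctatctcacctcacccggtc
Insig1: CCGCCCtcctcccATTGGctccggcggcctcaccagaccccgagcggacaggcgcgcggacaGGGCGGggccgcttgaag

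Total counts per library ranged from 14345819 to 26837227, and TMM factors from 0.871 to 1.14. Levels are given as CPM, read counts scaled to the TMM-normalized library size, a scale that compares a gene between rats and not with another gene of different length. The 6 hepatocyte markers summed to between 114346 and 183724 CPM in the 9 rats, and the 3 matched intestine markers to at most 1.32 CPM. Alb made up most of the hepatocyte sum, and Cps1 was at 3784 to 4453 CPM in control and 2028 to 2985 CPM in model rats. Markers of Kupffer cells (liver macrophages) and leukocytes summed to between 134 and 452 CPM, and liver endothelial markers to between 68.8 and 206 CPM. Model replicate 2 was the highest of its group in both (310 and 206 CPM). The part of these differences in the enzyme levels was not tested. In bulk RNA, fewer cells of a type and less RNA per cell cannot be told apart. Model replicate 1 stood apart over all genes, at -59.3 on the second principal component, where the rat nearest to it lay at -16.6. Among the sterol genes a different rat stood apart, HME replicate 3. The medians of the synthesis enzymes for HME against model and against control are therefore given with and without it. Other values of the HME group include it unless stated otherwise. With 3 rats a group the smallest p of an exact permutation test is 0.1, so differences were tested in a fit across all genes with the quasi-likelihood test of edgeR and Benjamini-Hochberg adjustment (FDR).

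Compared with the control group, most of the synthesis enzymes stood lower in the livers of fructose-fed rats. The log2 fold change (log2FC) was below 0 in 17 of the 18 enzymes, against 50.1% of all 12486 genes tested. All 3 model rats lay below all 3 control rats in 13 of the 18, against 9.94% of all genes tested. The median log2FC of the 18 was -0.69, and that of all genes was 0.00 to 2 decimals. No gene of the set passed the study's thresholds, a log2FC beyond 0.5 in either direction with an FDR within 0.01, in edgeR, where 0.0801% of all genes did. By DESeq2, 7 genes of the set passed them, namely Acat2, Lss, Hsd17b7, Sqle, Msmo1, Insig1 and Soat2, where 2.05% of all genes did. At an unadjusted p under 0.05 in edgeR, 13 of the 18 enzymes were lower, against 6.36% of all genes, and 0 were higher, against 6.84%. At an FDR of 0.05, 3 genes of the set passed in edgeR, against 0.601% of all genes. Acat2 and Hsd17b7 fell (all genes lower: 0.304%) and Soat2 rose (all genes higher: 0.296%).

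**Figure D1:**
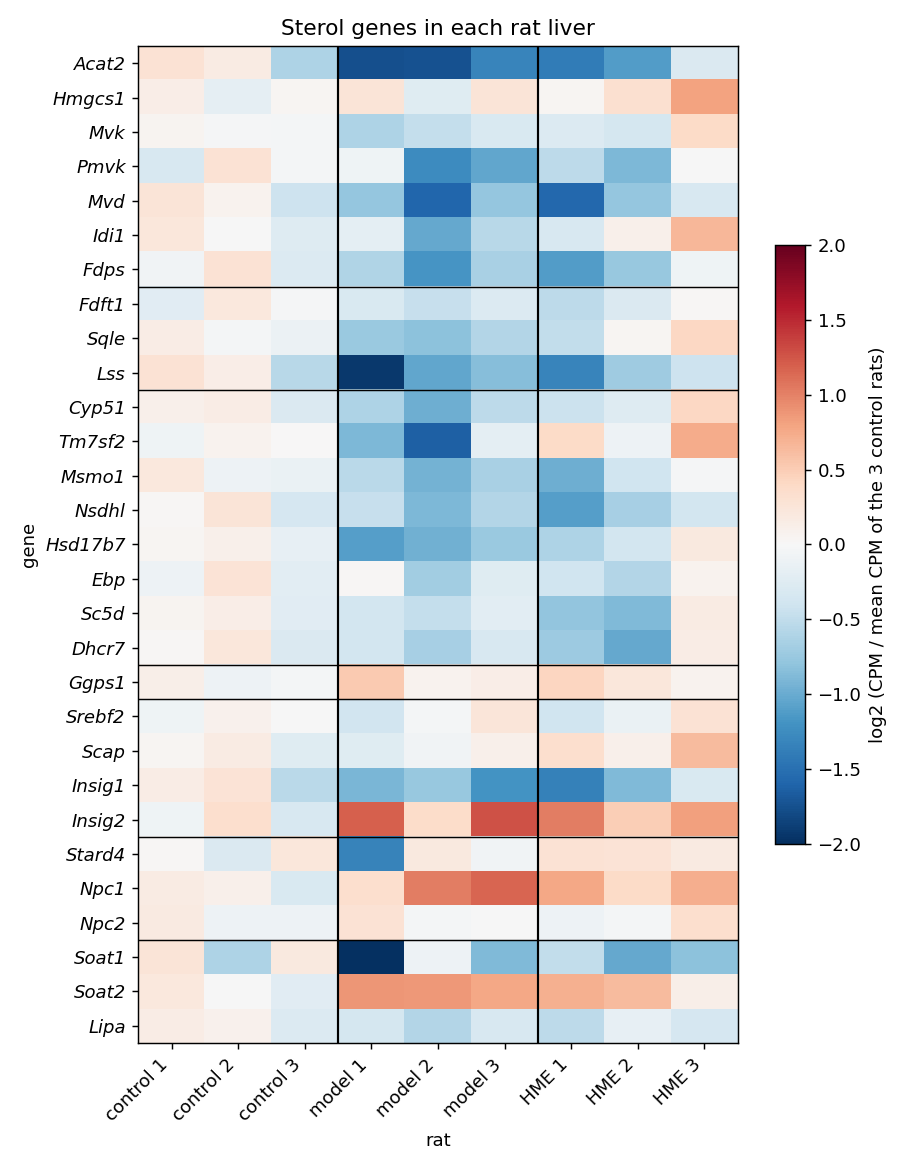
Level of 29 sterol genes (rows) in each rat (columns), as log2 of CPM over the mean CPM of the 3 control rats. Values past the ends of the scale take its darkest colour, and lines separate the roles of the genes and the 3 groups. The enzymes from Acat2 to Dhcr7 are mostly blue in the model rats and in HME replicates 1 and 2, while HME replicate 3 is mostly pale or red.

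In the mevalonate arm, Acat2 had the lowest fold change of the set. It encodes the cytosolic thiolase that joins the first acetyl-CoA units, and it is distinct from the sterol acyltransferase Soat2, with which it shares an old name. Acat2 was at 50.2, 45.8 and 26.8 CPM in the control rats and at 12.03, 12.2 and 16.4 CPM in the model rats. Every model rat lay well below the lowest control rat. The log2FC was -1.60 ± 0.250 (SE, edgeR FDR 0.0344). Mvd, the decarboxylase that yields isopentenyl diphosphate, was at 38.3, 33.8 and 24.1 CPM in the control rats and at 18.8, 10.7 and 18.8 CPM in the model rats, a log2FC of -0.99 ± 0.260 (SE, edgeR FDR 0.149). Fdps, which makes farnesyl diphosphate, was at 488, 629 and 423 CPM against 337, 226 and 327 CPM, a log2FC of -0.79 ± 0.215 (SE, edgeR FDR 0.163). Neither gene overlapped between the groups, and neither passed the FDR threshold in edgeR.

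The kinases and the isomerase of this arm had smaller or more uneven differences. Mvk, mevalonate kinase, had a log2FC of -0.46 without overlap between the groups (19.3 to 20.6 against 12.9 to 16.0 CPM). Pmvk, the next kinase, stood at -0.69, but model replicate 1 at 61.7 CPM lay within the control range of 52.4 to 79.9 CPM. Idi1, which interconverts the isoprene units, stood at -0.55 with overlap. FDR values of these 3 genes were between 0.227 and 0.407 in edgeR. Hmgcs1, the synthase that makes HMG-CoA, was the exception to the direction of the route. It was at 860, 694 and 810 CPM in the control rats and at 939, 667 and 943 CPM in the model rats. The groups overlapped, and the log2FC was 0.11 (95% interval -0.31 to 0.53, FDR 0.839 from edgeR), with a sign that turned to -0.05 under scaling by library size alone, which lowered the median of all genes to -0.14. Ggps1, on the side branch to geranylgeranyl diphosphate, stood at 0.26 (FDR 0.619).

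All 3 genes between farnesyl diphosphate and lanosterol were lower in the model group without overlap. Sqle encodes squalene epoxidase, a rate-controlling oxygenase of the route, and was at 85.8, 75.1 and 71.7 CPM in the control rats and at 46.4, 43.8 and 51.9 CPM in the model rats. The rats of a group lay close together, and the log2FC was -0.71 ± 0.134 (SE, edgeR FDR 0.0685). Lss, lanosterol synthase, was at 91.8, 81.7 and 51.1 CPM against 19.7, 36.5 and 41.3 CPM. Its log2FC was -1.21 ± 0.303 (SE, edgeR FDR 0.135), and its rats were more spread. Fdft1, squalene synthase, stood at -0.35 (FDR 0.387), with 214 to 290 CPM in the control rats and 182 to 208 CPM in the model rats.

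After lanosterol, all 8 enzymes had a fold change below 0, and 6 of them had no overlap between the groups. Hsd17b7 encodes the ketosteroid reductase that acts with Nsdhl in removing the methyl groups at carbon 4. It was at 48.6, 51.1 and 42.5 CPM in the control rats and at 22.1, 24.5 and 28.4 CPM in the model rats, and it fell by 0.93 ± 0.145 (SE) on the log2 scale (edgeR FDR 0.0345). Cyp51, the lanosterol demethylase, was at 528, 541 and 402 CPM against 320, 249 and 342 CPM, a log2FC of -0.69 ± 0.183 (SE, edgeR FDR 0.152). Msmo1, the methylsterol oxidase, was at 335, 271 and 263 CPM against 199, 151 and 185 CPM, a log2FC of -0.70 ± 0.167 (SE, edgeR FDR 0.121). These 3 genes had narrow ranges in the model group, all under the lowest control rat. Nsdhl stood at -0.64, Tm7sf2 (a sterol C14 reductase) at -0.79 and Dhcr7, which reduces 7-dehydrocholesterol, at -0.44, without overlap and with FDR values of 0.218, 0.337 and 0.32. Ebp, the sterol isomerase, at -0.27 and Sc5d, the sterol C5 desaturase, at -0.35 overlapped between the groups.

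**Figure D2:**
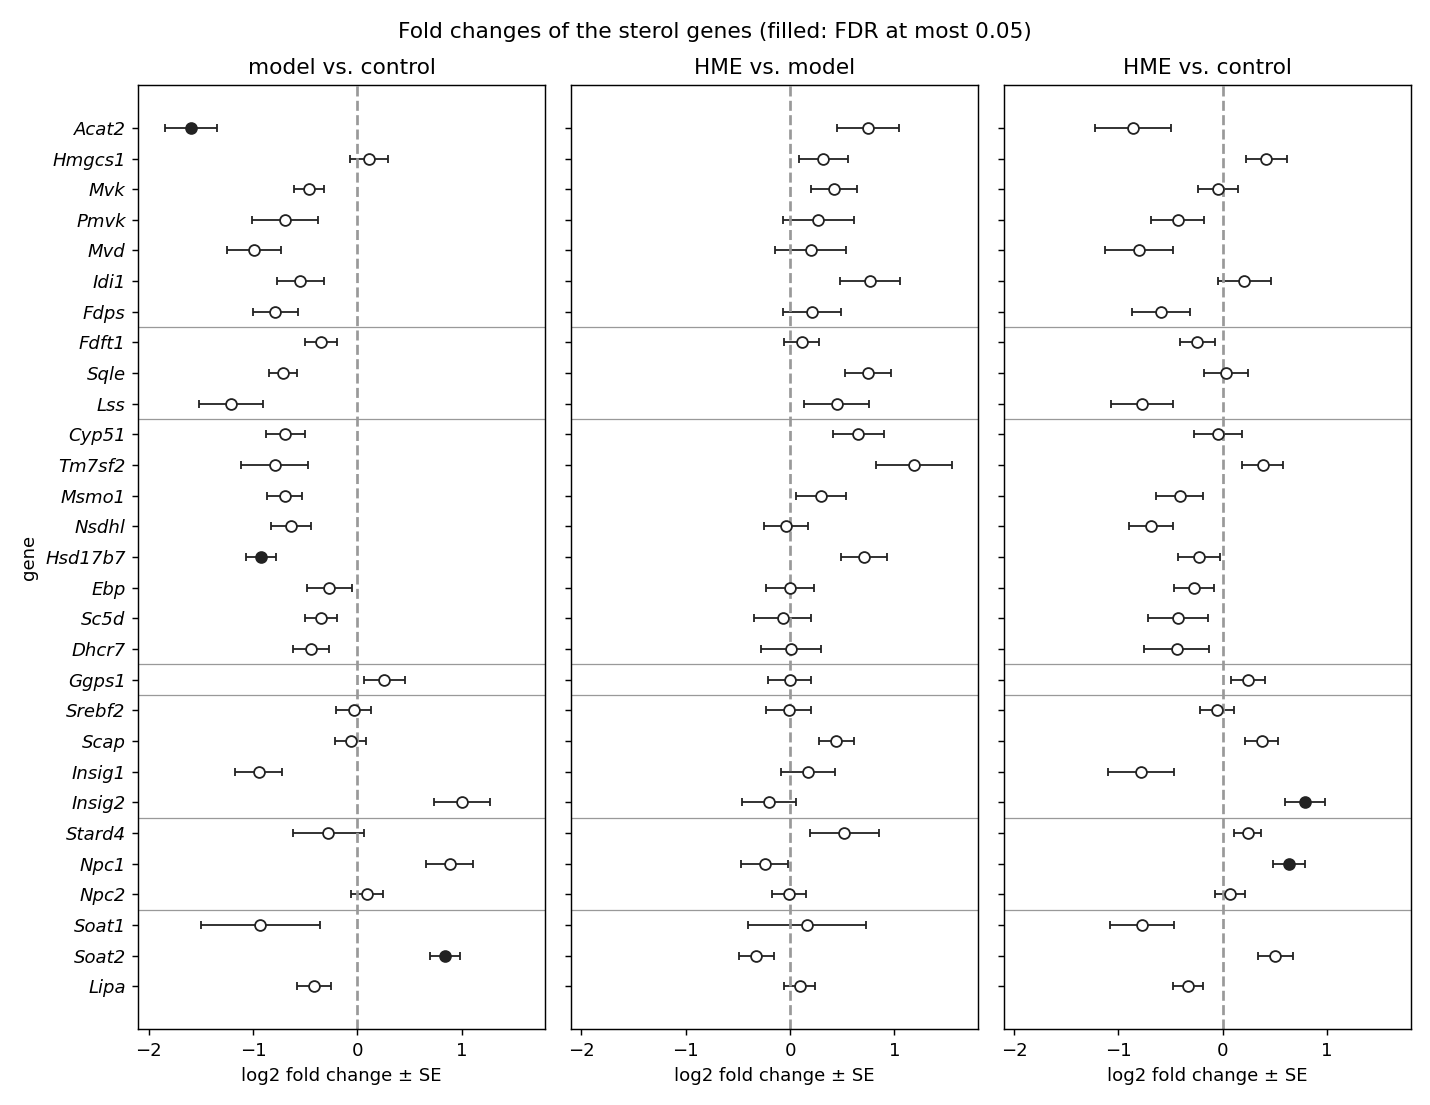
Log2FC (horizontal axis) with its standard error for 29 genes in the 3 comparisons, from edgeR fits on 6 libraries each. Filled points have an FDR of at most 0.05: Acat2, Hsd17b7 and Soat2 for model against control, none for HME against model, and Insig2 and Npc1 for HME against control.

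The calls at an FDR of 0.05 were lost in most fits with 1 rat left out, and the share of all genes called moved as well. That share was 0.601% with all 6 rats. With 1 left out it lay between 0.118% (without control replicate 2) and 0.885% (without model replicate 1). With each of the 6 rats left out in turn, the log2FC of Acat2 stayed between -1.82 and -1.42, and its FDR was at most 0.05 only without control replicate 3. For Hsd17b7 this held only without model replicate 1. For Soat2 it held in none of the 6 fits, whose FDR lay between 0.0501 and 0.186. The median of the 18 enzymes ranged from -0.76 to -0.51 in the same fits, with 17 of 18 below 0 in each of them.

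In the sterol-sensing machinery, the transcript of the regulator itself overlapped between the groups. Srebf2 was at 76.9, 86.5 and 81.3 CPM in the control rats and at 62.5, 79.5 and 96.9 CPM in the model rats. The model rats lay on both sides of the control rats, and the log2FC was -0.04 (95% interval -0.42 to 0.35, FDR 0.948 from edgeR). Scap was similar, at -0.07 (95% interval -0.41 to 0.28). RNA levels do not show how much SREBP2 was cut or present in the nucleus. The paralogues Insig1 and Insig2 lay on opposite sides. Insig1 was at 498, 545 and 310 CPM in the control rats and at 239, 267 and 197 CPM in the model rats, a log2FC of -0.95 ± 0.226 (SE, edgeR FDR 0.121). Insig2 was at 167, 223 and 141 CPM in the control rats and at 408, 229 and 427 CPM in the model rats, a log2FC of 1.002 ± 0.271 (SE, edgeR FDR 0.161). Model replicate 2 was only just above the highest control rat for Insig2. Neither gene overlapped between the groups, and neither passed in edgeR, while by DESeq2 their FDR values were 0.00537 and 0.0134.

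Among genes of sterol transport and storage, Npc1 and Soat2 were higher in every model rat than in every control rat. With Insig2 these were the 3 genes of the set that stood higher without overlap. This count, 3 of 29, is near the share of all genes tested (11.1%) and does not set these genes apart. Npc1 encodes the membrane protein through which cholesterol leaves the lysosome, and in the mouse annotation its exons overlap those of Rmc1 on the other strand. It was at 94.4, 90.3 and 68.4 CPM in the control rats and at 107, 172 and 189 CPM in the model rats, a log2FC of 0.88 ± 0.225 (SE, edgeR FDR 0.136). Model replicate 1 was the lowest of its group here, and without it the FDR was 0.0311. Soat2 encodes the acyltransferase that makes cholesterol esters in hepatocytes. It was at 38.0, 32.9 and 28.1 CPM in the control rats and at 60.6, 60.5 and 56.7 CPM in the model rats. The model rats were nearly level with each other, and the log2FC was 0.84 ± 0.143 (SE, edgeR FDR 0.0497). Lipa, the lysosomal acid lipase that splits cholesterol esters, was lower without overlap (244 to 328 against 197 to 235 CPM), a log2FC of -0.41 (FDR 0.319). Npc2, the soluble partner of Npc1, stood at 0.09 (95% interval -0.25 to 0.44) with a sign that turned to -0.07 under library size alone and to -0.03 without model replicate 1.

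The remaining genes of this group were low or uneven. Stard4, a cytosolic sterol carrier, was at 20.1, 57.8 and 48.0 CPM in the model rats, and only replicate 1 lay outside the control range of 41.3 to 59.0 CPM. Soat1, the esterifying enzyme of most other tissues, was at no more than 3.41 CPM in any rat. Npc1l1, a sterol importer that rodents make mainly in the intestine, had 2 counts in model replicate 2 and 0 in each of the other 8 rats. It was not tested.

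**Figure D3:**
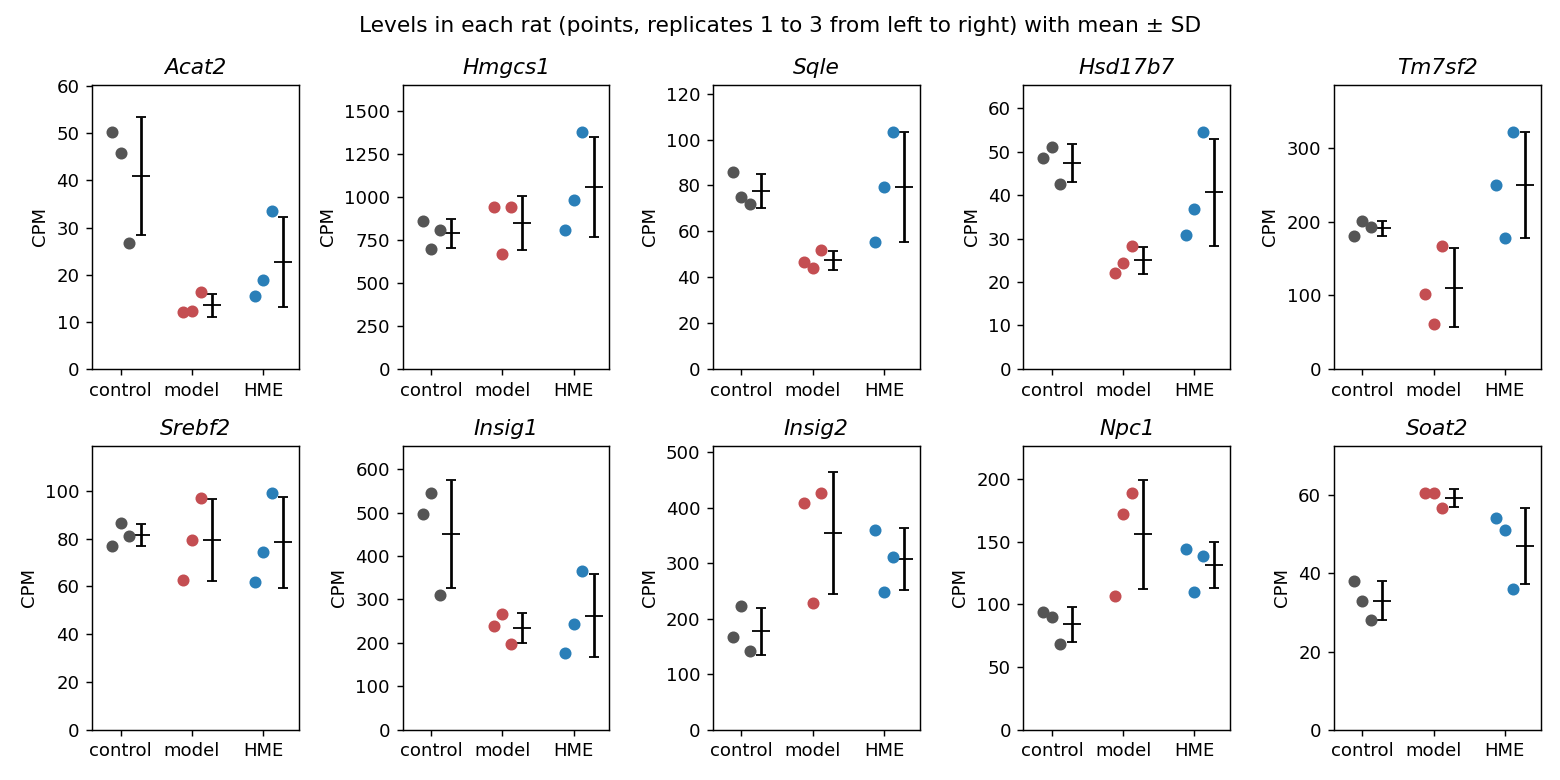
Levels in CPM of 10 of the genes in each rat, with 3 points per group and the mean ± SD beside them, each axis starting at 0. Acat2, Sqle, Hsd17b7, Tm7sf2 and Insig1 are lower in all model rats than in all control rats, Insig2, Npc1 and Soat2 are higher, and Hmgcs1 and Srebf2 overlap.

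Between the HME and model groups, the synthesis enzymes stood higher with the extract, but by less, and with a strong dependence on single rats. In 16 of the 18 the fold change was above 0, against 50.1% of the 12502 genes tested. The median log2FC was 0.31, and that of all genes was 0.00 to 2 decimals. Without HME replicate 3 the median was 0.06, and 8 of the 18 had a fold change below 0. Without model replicate 2 the median was 0.17, and 5 of the 18 were below 0. Of their groups, HME replicate 3 was the highest rat in all 18 enzymes and model replicate 2 the lowest in 14. Leaving out either therefore lowers most of these values by construction. The model rats are also those compared with the control group, so a low model rat moves both comparisons. No gene of the set passed an FDR of 0.05 in edgeR, where 0.456% of all genes did, and the lowest FDR was 0.384. None passed the study's thresholds either (0.136% of all genes). At an unadjusted p under 0.05, 7 genes of the set were higher (all genes tested: 3.54%), and 0 were lower (4.49%). Of the 18 enzymes, 6 were higher and 0 lower at that level. Without HME replicate 3, 3 were higher and 1 lower, and the share of all genes was not counted in that fit. DESeq2 gave 1 of the 29 at an FDR of 0.05, Tm7sf2, against 1.72% of all genes.

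All 3 HME rats lay above all 3 model rats in 4 of the 18 enzymes, against 6.17% of all genes. Tm7sf2 had the highest fold change. It was at 102, 61.3 and 167 CPM in the model rats and at 250.1, 178 and 321 CPM in the HME rats, a log2FC of 1.18 ± 0.365 (SE, edgeR FDR 0.415). Model replicate 3 and HME replicate 2 nearly met. Sqle was at 55.3, 79.5 and 103 CPM in the HME rats, a log2FC of 0.75 ± 0.219 (SE, edgeR FDR 0.384), and its HME rats spanned the control range. Hsd17b7 and Cyp51 were the other such enzymes. Hsd17b7 was at 30.8, 36.8 and 54.5 CPM in the HME rats, with replicate 3 above every control rat as well. Its log2FC was 0.71 ± 0.222 (SE, edgeR FDR 0.416), and that of Cyp51 was 0.65 ± 0.244 (SE, edgeR FDR 0.549). For Cyp51 the HME rats were at 362, 411 and 656 CPM, so that replicate 3 lay far above the other rats of its group. In the remaining 14 enzymes the groups overlapped.

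Among those 14 were genes of the mevalonate arm with clear differences between single HME rats. Acat2 was at 15.5, 18.8 and 33.5 CPM in the HME rats, and replicate 1 lay within the range of the model rats (log2FC 0.75, edgeR FDR 0.574). Mvd was at 10.8, 18.8 and 25.6 CPM and Fdps at 238, 303 and 484 CPM, and in both the first 2 HME rats lay within the model range. Idi1 was at 71.1, 95.5 and 141 CPM, with replicate 3 above every control rat as well (log2FC 0.76, edgeR FDR 0.557). Later in the route, Lss was at 29.9, 45.6 and 56.4 CPM and Msmo1 at 148, 219 and 286 CPM. In each of these genes HME replicate 3 was the highest of its group and above every model rat. By stage, the median log2FC was 0.32 over the 7 genes of the mevalonate arm, 0.45 over the 3 genes to lanosterol and 0.15 over the 8 genes after it. The late enzymes Ebp, Dhcr7, Sc5d and Nsdhl had fold changes between -0.07 and 0.01, with 95% intervals as wide as -0.66 to 0.67 for Dhcr7.

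Outside the enzymes, Scap was at 97.7, 82.7 and 119 CPM in the HME rats and stood above every model rat, replicate 2 by a narrow margin, a log2FC of 0.45 (FDR 0.56 from edgeR). Soat2 was at 54.2, 51.0 and 36.0 CPM and lay below every model rat, a log2FC of -0.32 (FDR 0.719), the only gene of the set that was lower without overlap (all genes tested: 7.86%). Insig1 at 177, 244 and 366 CPM, Insig2 at 360, 249 and 312 CPM and Npc1 at 144, 110 and 139 CPM overlapped with the model rats. Srebf2 stayed without a direction, at 62.0, 74.3 and 99.2 CPM, a log2FC of -0.01 (95% interval -0.52 to 0.49). Stard4 lay in a narrow band of 56.9 to 61.5 CPM in the HME rats, and replicates 1 and 2 lay above the highest model rat at 57.8 CPM.

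The rats of a group were then set beside each other. Relative to the mean of the control rats, the median log2 level of the 18 enzymes was 0.06, 0.13 and -0.22 in the control rats, -0.58, -0.95 and -0.57 in the model rats and -0.58, -0.49 and 0.11 in the HME rats. HME replicate 1 lay at the level of model replicates 1 and 3 and HME replicate 2 slightly above them, while HME replicate 3 lay within the range of the control rats. Counted by gene, 14, 18 and 16 of the 18 enzymes were below the lowest control rat in the 3 model rats, where 36.8%, 29.1% and 30.5% of all 12897 genes were. In the HME rats the numbers were 16, 14 and 1, where 32.7%, 30.3% and 32.9% of all genes were. HME replicate 3 was the highest rat of its group in all 18 enzymes (34.4% of all genes). Model replicate 2 was the lowest of its group in 14 of 18 (33.8% of all genes), as was control replicate 3 in 14 (31.4% of all genes). HME replicate 3 had 21180914 counts and a TMM factor of 0.914. Its hepatocyte markers summed to 173947 CPM, against 140855 and 140728 CPM in the other HME rats, and the part of these values in its position was not tested. Over all genes its median log2 level against the control mean was -0.03.

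**Figure D4:**
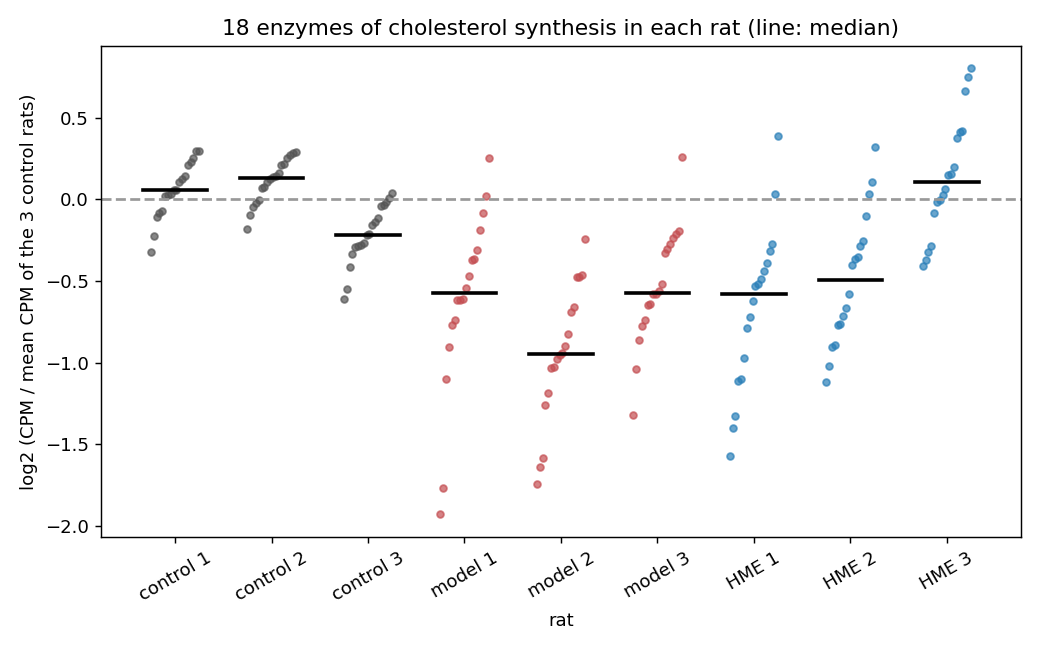
Log2 level of the 18 synthesis enzymes in each rat over the mean of the 3 control rats (vertical axis), with 1 point per enzyme in ascending order and a line at the median. The model rats and HME replicates 1 and 2 have medians between -0.95 and -0.49, and HME replicate 3 has a median of 0.11, between control replicates 1 and 2.

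The HME and control groups were compared to place the extract-treated rats against rats that drank water. This comparison shares its libraries with both others. Among 12633 genes tested, 7.21% passed an FDR of 0.05 in edgeR. Near that share, 2 of the 29 genes of the set did, Npc1 and Insig2. Both rose (all genes higher: 3.54%), and both lay above every control rat (14.9% of all genes). Npc1 had a log2FC of 0.63 ± 0.153 (SE, edgeR FDR 0.0404) and Insig2 of 0.79 ± 0.194 (SE, edgeR FDR 0.0448). No gene of the set passed the study's thresholds in edgeR, against 1.48% of all genes, while 10 had an unadjusted p under 0.05, against 24.3%. By DESeq2, 2 of the 29 genes passed the thresholds, near the 6.21% of all genes with an adjusted p that did. Insig2 kept an FDR of at most 0.05 only without control replicate 2 or HME replicate 2, and Npc1 only without HME replicate 2.

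The 18 enzymes had a median log2FC of -0.35 between the HME and control groups, and 14 of them stood below 0 (all genes tested: 50.9%). Only Nsdhl, the dehydrogenase beside Hsd17b7, lay below the control rats without overlap (all genes tested: 15.2%), at 272, 367 and 449 CPM against 589, 694 and 461 CPM, a log2FC of -0.68 (FDR 0.0874 from edgeR). Without HME replicate 3 the median was -0.57. This rat stood apart as the highest of its group in all 18 enzymes, so their values fall by construction when it is left out. Calls of lower enzymes in the fit without it are therefore no separate evidence. In that fit 4 genes of the set passed an FDR of 0.05, where 4.84% of all genes did. Fdps, Sc5d and Dhcr7 were lower at FDR values of 0.0452, 0.0262 and 0.0389, and Soat2 was higher at 0.036. Npc1 and Insig2 were no longer called. Sqle at 0.03, Cyp51 at -0.04 and Mvk at -0.05 were the enzymes nearest to the control level, and none of the 3 kept its sign over the alternatives. With each rat left out, Sqle ranged from -0.19 to 0.24, Cyp51 from -0.33 to 0.12 and Mvk from -0.30 to 0.09. Hmgcs1 stood at 0.42 (FDR 0.228), and Insig1 at -0.78 (FDR 0.185) with overlap.

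A list of 33 further genes of sterol and isoprenoid metabolism was set beside these, with SREBP processing proteases, Insig-linked ubiquitin ligases, sterol carriers, lipoprotein receptors and their adaptors, LXR and its targets, and enzymes of ubiquinone and dolichol synthesis. Of these, 32 were matched and tested. Compared with the control group, 20 were lower and 12 higher in the model group, with a median of -0.04, and 0 passed an FDR of 0.05 in edgeR, while 7 had an unadjusted p under 0.05 (all genes tested: 13.2%). Between the HME and model groups 18 were higher and 14 lower, 0 passed, and 3 had an unadjusted p under 0.05 (all genes tested: 8.02%). Between the HME and control groups, 9 had an unadjusted p under 0.05 (all genes tested: 24.3%). At an FDR of 0.05 in edgeR, Srebf1, Stard5 and Tmem97 fell (all genes lower: 3.67%) and Scarb1 rose (all genes higher: 3.54%). Srebf1, the paralogue of Srebf2 that drives fatty acid synthesis, had mean levels of 677 CPM in control, 425 CPM in model and 210.3 CPM in HME rats (log2FC -1.69 for HME against control, FDR 0.00244). Stard5, a sterol carrier, and Tmem97, which binds Npc1, had log2FC values of -0.74 and -0.55 (FDR 0.00679 and 0.032). Scarb1, the receptor for HDL, had mean levels of 69.7 CPM in control, 79.2 CPM in model and 117 CPM in HME rats (log2FC 0.74 for HME against control, FDR 0.0264).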

How the data were processed

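Liver RNA of 9 rats (3 per group) was measured by sequencing of poly(A) RNA. Raw counts per gene were deposited. The authors had made them by HISAT2 (2.0.5) alignment and by HTSeq (0.6.1) counting over exons, in which strand was ignored. The submitters' processing notes name the build Rnor_6.0. Reads of overlapping genes on opposite strands, and of near-identical copies, cannot be separated. In the mouse annotation (GENCODE M21), 7 of the 30 genes share exonic bases with a gene on the other strand, among them Fdft1, Cyp51 and Npc1 with a protein-coding gene. A second deposited table, of assembled transcripts, was not used, since its unit is not stated.

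The 6 libraries of each comparison were fitted in edgeR 4.0.16 under R 4.3.3 (filterByExpr, TMM, robust quasi-likelihood, two-sided), and FDR values were adjusted over all genes tested. Intervals are 95% intervals of the fit. CPM use TMM factors over 9 libraries. DESeq2 (1.42.0), other scalings and filters, all 9 libraries in 1 fit, a replicate block and each rat left out were the alternatives. The genes, lists and tests were chosen with earlier results of these data known, and all 30 genes are named. Values in every rat with the full statistics are given for those with an FDR of at most 0.05 or an unadjusted p under 0.01 in model against control or HME against model, and other genes of the 30 by levels, ranges or single values. Genes of the further list are given by counts, and by value only where called. Same-numbered rats deviated with correlations between -0.232 and -0.0206, so the numbers do not pair the rats. Libraries held between 14345819 and 26837227 counts, and the spread between rats exceeded counting error. A result on 1 further gene of the pathway list is not reported here.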

Additional observations from a re-analysis of the deposited data

How the results depend on the processing

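Among the values of single genes, 1076 of 1131 kept their sign over the alternatives and 55 changed it. For model against control, the 3 genes of the set at an FDR of 0.05 (0.601% of all genes) became 0 with library size alone (0.593%), 5 without a filter on low counts (0.984%), 12 by DESeq2 (3.75%) and 0 with the replicate block (0.00801%). Those past the study's thresholds went from 0 to 2 without a filter (0.372%) and 7 by DESeq2 (2.05%). For HME against model, the count at an FDR of 0.05 went from 0 to 1 by DESeq2 (1.72%). For HME against control, the 2 genes at an FDR of 0.05 (7.21%) were both lost with library size alone (7.65%). There the only gene of the set called was Nsdhl, which was lower. The count became 6 by DESeq2 (10.9%), 0 with all 9 libraries in 1 fit (3.88%) and 0 with the replicate block (4.04%). Those past the study's thresholds went from 0 to 1 without a filter (2.56%) and 2 by DESeq2 (6.21%). The cause was not tested. The block itself left 1 gene of all 12486 at an FDR of 0.05 for model against control, and the replicate numbers were not read as pairs of animals. With each rat left out, the count at an FDR of 0.05 ranged from 0 to 2 for model against control (0.118% to 0.885% of all genes). It ranged from 0 to 4 for HME against control (2.59% to 5.13%) and stayed at 0 for HME against model (0.118% to 0.534%). The median log2FC of the 18 enzymes ranged from -0.76 to -0.51, from -0.57 to -0.21 and from 0.06 to 0.49 for model against control, HME against control and HME against model. No gene of the set passed the study's thresholds in these fits. In the same order of comparisons, 0% to 0.0787%, 0.666% to 1.02% and 0.0157% to 0.0943% of all genes did. Rats of a group differed by more than counting error, and what more depth would change was not tested.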
